A study of Mus musculus with 6 samples.

Results

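The expression of 9 members of the Sox family, the genes of progenitor and glial Sox factors, was followed in mouse corticothalamic projection neurons at E18, P3 and P6. These are the neurons of the cortex whose axons run to the thalamus. Every probe set annotated to exactly 1 of the symbols Sox1, Sox2, Sox3, Sox4, Sox8, Sox9, Sox10, Sox11 and Sox21 was taken, which gave 28 probe sets for 9 genes, out of 18193 genes with such a probe set. All samples came from wild-type C57BL/6 mice. The sort took cells of dissociated cortex by the fluorescence of green microspheres, which neurons had carried back from the thalamus along their axons. The purity of the sort was not tested here. Many markers of progenitors, dividing cells and glia were bright on the E18 arrays, as given below. The E18 arrays came from an injection at E17.5 and collection at E18.5, the P3 arrays from P1 and P3, and the P6 arrays from P4 and P6, with 2 arrays at each stage. Since no label separates the 2 arrays by animal, culture or sort, the spread behind each p-value may be technical. The time from injection to collection was 1 day at E18 and 2 days at P3 and P6, a difference that cannot be told apart from stage.

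Sox proteins are transcription factors that bind and bend DNA through a shared HMG box. Of the 9 genes, the SoxB group holds Sox1, Sox2 and Sox3, which keep neural progenitors undifferentiated, and Sox21, a repressor that opposes them. The SoxC factors Sox4 and Sox11 act as progenitors become neurons and switch on genes of young neurons. The SoxE factors Sox8, Sox9 and Sox10 belong to glial lineages, with Sox9 in radial glia and astrocytes and Sox10, with Sox8, in oligodendrocytes and their precursors.

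Agreement within a stage varied. The E18 pair correlated at 0.998 over all probe sets, the P3 pair at 0.961 and the P6 pair at 0.976. 18S ribosomal RNA signal was 14.22 and 13.92 log2 units on P3 replicate 2 and P6 replicate 1, and 11.32 to 11.83 on the other 4 arrays. The 18 hybridization control probe sets averaged 9.6 and 9.2 on the E18 arrays, 11.7 and 11.6 on the P3 arrays and 13.0 and 9.8 on the P6 arrays. Actb, whose 3′ signal exceeds its 5′ signal where RNA is degraded, had a 3′ excess of 0.56 and 0.58 log2 units on the E18 arrays, 1.19 and 1.76 on the P3 arrays and 1.06 and 0.82 on the P6 arrays. Of 11 tested markers of corticothalamic neurons, 9 were higher at P3 than at E18 and 0 were lower (limma adjusted p under 0.05). Over all genes tested, 15.5% were called higher and 25.7% lower. Values are log2 units of array signal throughout, and levels of different probe sets cannot be compared with each other. As a guide to the low end of the signal, 20 genes of other tissues, such as insulin and protamine genes, had medians between 5.66 and 6.15 on the 6 arrays and a highest value of 7.75.

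Between E18 and P3 the Sox genes of progenitors fell far, Sox9 and Sox4 fell less, and Sox10 and Sox11 did not pass the test. Of the 9 genes, 8 passed the filter on dim genes, and limma called 6 of these lower and 0 higher at P3. The filter used the mean over all 6 arrays. Sox1, Sox2 and Sox3 had P3 and P6 means under its cut of 5.97 and passed only through their high E18 values. The counts and medians given here include them. In the gene lists below the same holds for Neurog2, Prom1, Eomes, Emx2, Cenpf, Aurkb, Id3, Tead2, Olig2 and Dlx1. Over all 13645 genes tested, 25.7% were called lower and 15.5% higher. The median change of the 8 genes was -2.23 log2 units, against -0.13 for all genes tested. Between E18 and P6, 5 of the 8 were lower and 0 higher, with 16.9% of all genes called lower and 14.8% higher. The median was then -2.40, against 0.08 for all genes. Both counts were the same with the near-identical E18 arrays averaged to 1. In bulk RNA, fewer cells of a type and less RNA per cell cannot be told apart.

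**Figure D1:**
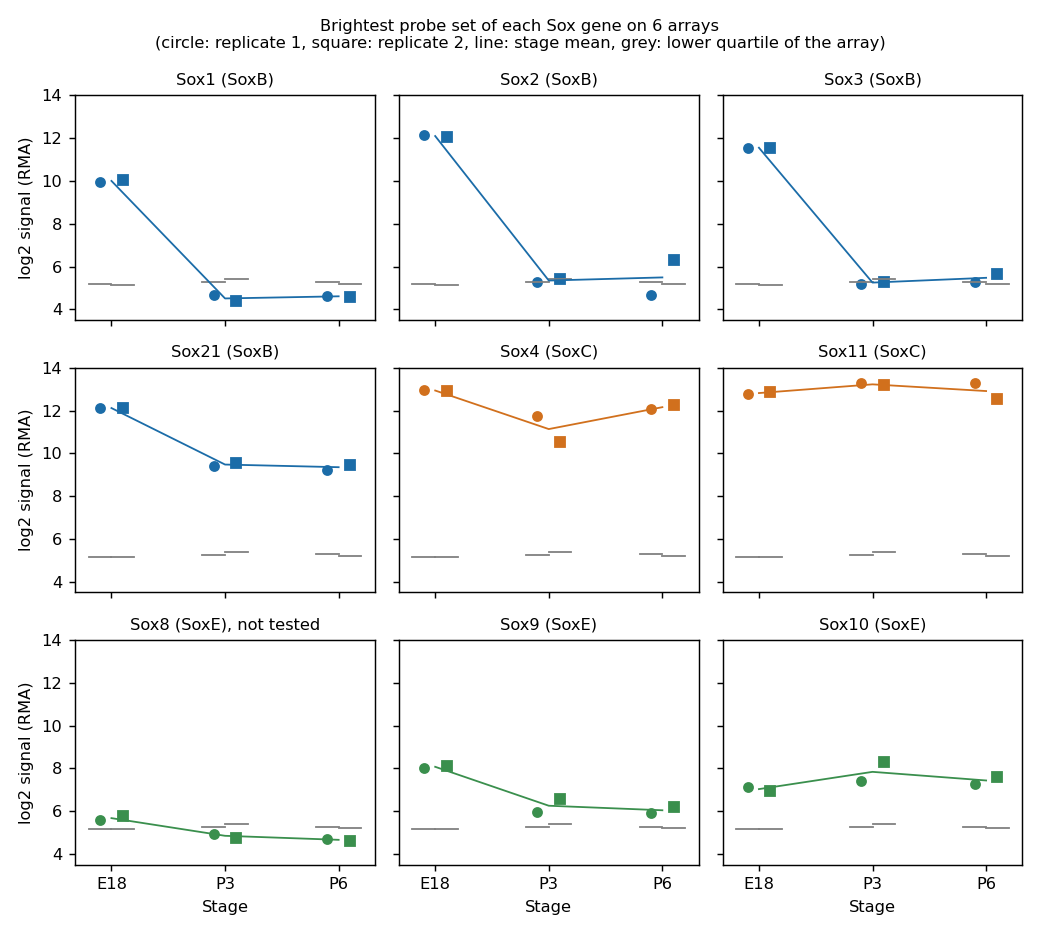
Log2 signal (vertical axis) of the brightest probe set of each Sox gene on the 2 arrays of E18, P3 and P6 (horizontal axis), with a line through the stage means and grey marks at the lower quartile of each array. Sox1 falls below the lower quartile of every later array, Sox3 lies near it, Sox2 lies near or below it except at 6.32 on P6 replicate 2, Sox21 stops at 9.24 to 9.53, and Sox4 and Sox11 stay at 10.5 or higher on all 6 arrays.

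The SoxB genes among the 9 had the steepest falls. Sox2, which sustains progenitor self-renewal, had 12.12 and 12.07 log2 units on the E18 arrays, 5.26 and 5.43 on the P3 arrays and 4.66 and 6.32 on the P6 arrays. All 4 postnatal arrays lay far below both E18 arrays, and the P6 arrays of Sox2 lay further apart than those of any other tested Sox gene here. The fall at P3 was 108-fold (-6.75 ± 0.48, SE; limma adjusted p = 7.4e-05), and the fall at P6 was 97.5-fold (-6.61 ± 0.48, adjusted p = 8.08e-05). Without P6 replicate 1 the P6 change was -5.78 and without P6 replicate 2 it was -7.44. With the hybridization controls as a covariate the P3 change of Sox2 was -5.59. Sox3, a close relative active in the same progenitors, had 11.56 and 11.54 on the E18 arrays, 5.20 and 5.30 on the P3 arrays and 5.30 and 5.65 on the P6 arrays. Its groups were likewise fully apart, at -6.30 ± 0.21 for P3 (adjusted p = 6.42e-06) and -6.08 ± 0.21 for P6 (adjusted p = 7.7e-06). Sox1, a marker of neural commitment, had 9.97 and 10.03 on the E18 arrays, 4.65 and 4.37 on the P3 arrays and 4.63 and 4.59 on the P6 arrays. That is 45.0-fold lower at P3 (-5.49 ± 0.17, adjusted p = 6.42e-06) and 42.0-fold lower at P6 (-5.39 ± 0.17, adjusted p = 7.7e-06). The postnatal values of Sox1, Sox2 and Sox3 lay under the median of the other-tissue genes on every array except Sox2 on P6 replicate 2, and values at the low end understate a fold change.

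Sox21 fell as well, but its brightest probe set remained well above the low end. It had 12.11 and 12.12 on the E18 arrays, 9.42 and 9.53 on the P3 arrays and 9.24 and 9.47 on the P6 arrays. The fall was 6.23-fold at P3 (-2.64 ± 0.23, adjusted p = 0.000182) and 6.79-fold at P6 (-2.76 ± 0.23, adjusted p = 0.000145). The other Sox21 probe set had 10.87 and 10.92 on the E18 arrays, 5.72 and 5.42 on the P3 arrays and 5.86 and 5.79 on the P6 arrays. In a fit over all 34945 probe sets with 1 symbol its change was -5.32 ± 0.21 at P3 (adjusted p = 3.22e-05). The direction of Sox21 was thus shared by both probe sets, and the size was not. Sox1 and Sox3 each had a further, dimmer probe set. That of Sox1 ranged from 4.81 to 5.45 and that of Sox3 from 6.32 to 6.95 over the 6 arrays, and neither was called at P3, while that of Sox1 was called lower at P6 (-0.52, adjusted p = 0.0458).

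The promoters of Sox1, Sox2 and Sox21, the SoxB genes among the 9 matched to a promoter sequence, are shown to set their sequence beside the expression data. Each runs from 250 bases before to 50 bases after the RefSeq start in GRCm38.p6. Capitals mark the CCAAT box (CCAAT or ATTGG) and the core of the octamer bound by POU factors (ATGCAAA or TTTGCAT). Sox1 lies at chr8:12395269-12395568 on the + strand and Sox2 at chr3:34649745-34650044 on the + strand, and Sox21 lies at chr14:118236981-118237280 on the - strand.
Sox1: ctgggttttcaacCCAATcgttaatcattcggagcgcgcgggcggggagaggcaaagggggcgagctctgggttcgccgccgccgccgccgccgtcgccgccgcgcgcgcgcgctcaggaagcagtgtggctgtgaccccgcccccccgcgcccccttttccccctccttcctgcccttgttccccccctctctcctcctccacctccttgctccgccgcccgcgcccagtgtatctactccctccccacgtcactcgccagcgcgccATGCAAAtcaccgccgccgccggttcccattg
Sox2: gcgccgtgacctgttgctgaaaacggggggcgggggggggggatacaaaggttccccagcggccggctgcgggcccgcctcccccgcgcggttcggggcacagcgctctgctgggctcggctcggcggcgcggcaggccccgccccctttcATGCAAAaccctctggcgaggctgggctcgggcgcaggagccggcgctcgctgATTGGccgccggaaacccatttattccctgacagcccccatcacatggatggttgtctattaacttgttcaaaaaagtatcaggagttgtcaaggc
Sox21: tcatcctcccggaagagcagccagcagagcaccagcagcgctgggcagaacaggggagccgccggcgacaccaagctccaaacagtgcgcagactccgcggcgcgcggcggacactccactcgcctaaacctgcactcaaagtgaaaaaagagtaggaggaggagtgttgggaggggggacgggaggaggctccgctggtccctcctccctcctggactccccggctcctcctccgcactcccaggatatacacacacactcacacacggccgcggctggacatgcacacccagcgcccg
Sox1 and Sox2 each hold 1 octamer core and 1 CCAAT box, and Sox21, which also fell, holds 0 of either. On either strand, 4.63% of 32851 promoters of this length hold the octamer core and 37.4% the CCAAT box. The octamer core began at position -99 in Sox2 and +19 in Sox1. Sox1 had 37 CpG dinucleotides, Sox2 had 27 and Sox21 had 22, against a median of 7 over all promoters. The Sox motif ACAAAG (or CTTTGT) occurred once in Sox2 and not in Sox1 or Sox21, and 18.7% of promoters hold it. None of these windows held TATAAA (or TTTATA), which 13.6% hold. A match is a description of the sequence only. Promoter sequences were matched for 6 of the 9 genes.

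POU factors bind beside Sox proteins at many neural enhancers, and NFI factors act with Sox9 in glial development. Of 7 tested POU and NFI genes, 2 were lower and 0 higher at P3, a share near the 25.7% of all genes called lower. Pou3f3 had 12.68 and 12.65 on the E18 arrays, 11.15 and 10.93 on the P3 arrays and 10.84 and 10.10 on the P6 arrays, a fall of 1.62 ± 0.28 log2 units at P3 (adjusted p = 0.00416). Pou3f4 fell by 1.66 ± 0.30 at P3 (adjusted p = 0.00496). At P6, 3 of the 7 were lower and 0 higher, with Pou3f2 at -1.18 ± 0.27 added (adjusted p = 0.0149). Over all genes tested, 16.9% were called lower and 14.8% higher at P6. Pou3f2 at P3 (-0.75, adjusted p = 0.0618) and Nfib at P3 (-0.75, adjusted p = 0.134) did not pass the test.

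**Figure D2:**
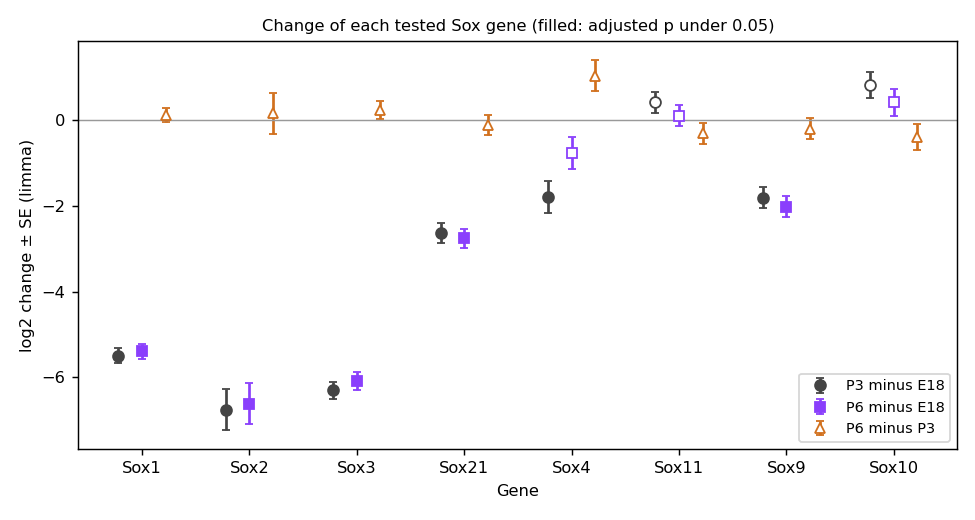
Log2 change with its limma SE (vertical axis) of the 8 tested Sox genes (horizontal axis) for P3 minus E18, P6 minus E18 and P6 minus P3, filled where the adjusted p was under 0.05. Sox1, Sox2, Sox3, Sox21 and Sox9 are lower than E18 by similar amounts at both later stages, Sox4 is filled at P3 and not at P6 in this fit (5 alternatives call it at P6), and no P6 minus P3 value is filled.

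The SoxC genes, both bright on every array, gave different answers by probe set. Sox11, needed for neuron differentiation and axon growth, had 12.78 and 12.85 log2 units on the E18 arrays, 13.27 and 13.18 on the P3 arrays and 13.28 and 12.54 on the P6 arrays. The P3 arrays lay above the E18 arrays and the P6 arrays lay on both sides of them. The changes were 0.41 ± 0.24 at P3 (adjusted p = 0.208) and 0.09 ± 0.24 at P6 (adjusted p = 0.788), and neither passed the test. All 6 probe sets of Sox11 had lower means at P6 than at E18 except this one, and in the fit over all probe sets 2 of the 6 were called lower at P6. One of them had 12.31 and 12.32 on the E18 arrays, 12.27 and 12.12 on the P3 arrays and 11.09 and 11.38 on the P6 arrays (-1.08 ± 0.20 at P6, adjusted p = 0.0102). The other had 8.16 and 8.28 on the E18 arrays, 8.78 and 9.71 on the P3 arrays and 7.19 and 6.78 on the P6 arrays (-1.23 ± 0.34 at P6, adjusted p = 0.0464). At P3 the 6 probe sets ranged from -0.67 to 1.03, and 0 were called. When its 6 probe sets were averaged, Sox11 stood at -0.66 at P6 and was not called (adjusted p = 0.0598), so its direction depends on the probe set.

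Sox4, which acts beside Sox11 in young neurons, had 12.94 and 12.93 on the E18 arrays, 11.74 and 10.52 on the P3 arrays and 12.06 and 12.25 on the P6 arrays. Both P3 arrays lay below both E18 arrays, with P3 replicate 2 the lowest of the 6. The P3 change was -1.80 ± 0.37 (adjusted p = 0.00819), or -1.19 without P3 replicate 2 and -2.41 without P3 replicate 1, and limma called Sox4 in both cases, though P3 is then 1 array assumed to vary like those of E18 and P6. The call was lost with the Actb 3′ excess as a covariate (-0.06, adjusted p = 0.922), with the hybridization controls as one (-1.70, adjusted p = 0.122) and with its 8 probe sets averaged (-0.69, adjusted p = 0.0597). P3 replicate 2, the lowest for Sox4, was also the array with the largest Actb 3′ excess, 1.76. At P6 the change was -0.78 ± 0.37 and did not pass (adjusted p = 0.148). Sox4 was called lower at P6 with quantile normalization (-0.82, adjusted p = 0.0397), with array weights (adjusted p = 0.00458), with only the stages compared in the fit (adjusted p = 0.00548) and without P3 replicate 1 or P3 replicate 2 (adjusted p = 0.00586 and 0.0056). Whether Sox4 is called at P3, at P6 or at both thus depends on these settings. Its 8 probe sets fell into 2 kinds. The 4 built on 1 common cDNA in the platform annotation were all called lower at P3, by 1.49 to 2.27 log2 units, and the other 4 ranged from 0.20 to 0.78 with 0 called.

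The promoters of the SoxC genes are shown with the same capitals, for comparison with those of the SoxB genes. Sox4 lies at chr13:28953650-28953949 and Sox11 at chr12:27342669-27342968, both on the - strand of GRCm38.p6.
Sox4: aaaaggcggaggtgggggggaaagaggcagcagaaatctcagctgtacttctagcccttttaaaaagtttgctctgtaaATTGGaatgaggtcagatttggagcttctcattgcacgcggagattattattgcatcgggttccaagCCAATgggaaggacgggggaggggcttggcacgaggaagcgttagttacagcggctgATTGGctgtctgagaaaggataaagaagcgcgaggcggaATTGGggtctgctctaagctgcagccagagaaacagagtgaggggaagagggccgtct
Sox11: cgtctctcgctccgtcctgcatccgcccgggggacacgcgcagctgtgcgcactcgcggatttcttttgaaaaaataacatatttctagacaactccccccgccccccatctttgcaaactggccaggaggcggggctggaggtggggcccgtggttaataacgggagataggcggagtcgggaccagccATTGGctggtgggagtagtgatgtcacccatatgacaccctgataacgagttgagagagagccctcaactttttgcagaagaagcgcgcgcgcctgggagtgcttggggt
Sox4 held 4 CCAAT boxes and Sox11 held 1, and neither held the octamer core. Sox4 had 12 CpG dinucleotides and a GC content of 52.0%, the lowest of the 6 matched Sox promoters, and Sox11 had 21 and 58.7%. Nothing about binding follows from these windows.

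A list of young neuron genes and known targets of the SoxC factors held changes in both directions. Of 13 tested, 5 were higher and 2 lower at P3. Over all genes tested, 15.5% were called higher and 25.7% lower. The 2 lower were Tead2 and Neurod1, a neurogenic factor (-2.98 ± 0.35 at P3, adjusted p = 0.000825). Tubb3, a neuronal tubulin gene and a Sox11 target, had 10.22 and 10.15 on the E18 arrays, 12.09 and 11.97 on the P3 arrays and 12.50 and 12.09 on the P6 arrays (1.85 ± 0.22 at P3, adjusted p = 0.000847). Tead2, a transcriptional effector of the Hippo pathway and a SoxC target, had 9.37 and 9.26 on the E18 arrays, 4.96 and 5.51 on the P3 arrays and 5.24 and 5.14 on the P6 arrays (-4.08 ± 0.21 at P3, adjusted p = 2.14e-05). Both named SoxC targets were fully separated from E18, in opposite directions. Dcx, a microtubule protein of migrating neurons, had a change of 0.72 ± 0.32 at P3 (adjusted p = 0.106) and Map2, a dendrite protein gene, 0.60 ± 0.30 (adjusted p = 0.137).

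**Figure D3:**
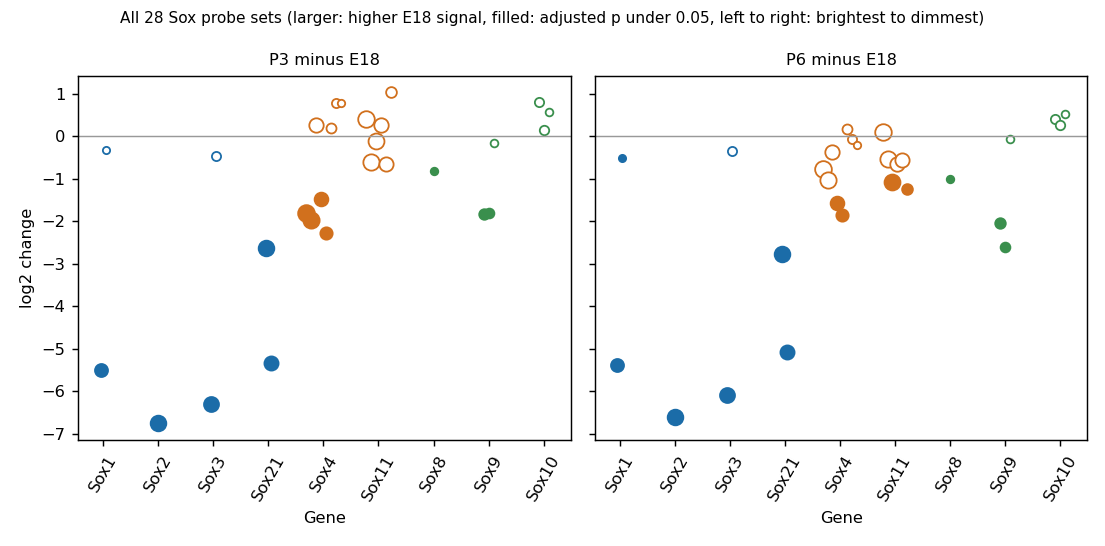
Log2 change (vertical axis) of all 28 Sox probe sets by gene (horizontal axis) for P3 minus E18 and P6 minus E18, in a fit over every probe set with 1 symbol; larger points had higher E18 signal and filled points had an adjusted p under 0.05. The 8 probe sets of Sox4 split into a called group of 4 and an uncalled group of 4 at P3, and the 6 of Sox11 straddle 0.

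The SoxE genes stood nearer the low end of the signal. Sox9, which specifies radial glia and astrocytes, had 8.04 and 8.11 on the E18 arrays, 5.94 and 6.58 on the P3 arrays and 5.91 and 6.19 on the P6 arrays. All postnatal arrays lay below both E18 arrays. The fall was 3.53-fold at P3 (-1.82 ± 0.24, adjusted p = 0.00138) and 4.09-fold at P6 (-2.03 ± 0.24, adjusted p = 0.000759). The other-tissue genes had medians of 5.92 to 6.15 on the P3 and P6 arrays. Postnatal Sox9 thus lay near the low end, which limits both folds. A further Sox9 probe set built on the same cDNA fell by 1.80 ± 0.21 at P3 and by 2.61 ± 0.21 at P6, and the third, dim on all arrays, ranged from 5.50 to 5.91 and was not called.

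Sox10, which drives the oligodendrocyte lineage, had 7.14 and 6.93 on the E18 arrays, 7.40 and 8.29 on the P3 arrays and 7.30 and 7.59 on the P6 arrays. It was higher on each later array than on either E18 array, but the spread at P3 was wide and the change was 0.81 ± 0.31 (adjusted p = 0.071). Without P3 replicate 1 it was 1.25 and called higher (adjusted p = 0.00803), with that lone P3 array assumed to vary like the other stages, without P3 replicate 2 it was 0.36, and with the Actb 3′ excess as a covariate it was -0.20 (adjusted p = 0.851). At P6 the change was 0.40 ± 0.31 (adjusted p = 0.347), and none of the 3 Sox10 probe sets was called at P3 or P6. On 4 of the 6 arrays Sox10 lay under the highest other-tissue gene. Sox8, which acts with Sox9 and Sox10 in glia, had 5.59 and 5.77 on the E18 arrays, 4.96 and 4.75 on the P3 arrays and 4.71 and 4.62 on the P6 arrays. Its mean was under the filter of 5.97, so it was not tested among genes. In the fit over all probe sets its change was -0.83 ± 0.15 at P3 (adjusted p = 0.00832) and -1.01 ± 0.15 at P6 (adjusted p = 0.00364), at levels near or under the medians of the other-tissue genes on every array.

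Over all 28 Sox probe sets, 12 were called lower and 0 higher at P3, with 17.1% of all probe sets called lower and 11.5% higher. At P6, 13 were lower and 0 higher, with 12.4% of all lower and 8.76% higher. Between P3 and P6, 0 of the 28 were called.

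Between P3 and P6 no Sox gene passed the test, with 0% of all genes called. Limma called 0 of 8, with 1 of 8 at an unadjusted p under 0.05, and 2696 of all genes at that level. That gene was Sox4, at 1.02 ± 0.37 log2 units (adjusted p = 0.196). Without P3 replicate 1 limma called 2 of the 8, Sox4 at 1.63 (adjusted p = 0.0132) and Sox10 at -0.85 (adjusted p = 0.0438), in a fit that called 3922 genes in all. That fit has 1 P3 array, and its spread comes from E18 and P6 alone. Sox1, Sox2, Sox3, Sox9 and Sox21 differed by at most 0.22 log2 units in size, with SEs from 0.17 to 0.48. Leaving out 1 array moved this difference to between -0.69 and 0.98 for Sox2 and between -0.53 and 0.10 for Sox9. Sox1, Sox2, Sox3 and Sox9 were at or near the low end at both stages, where a difference could hardly be measured. A p that misses the threshold does not show equal levels.

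The P6 minus P3 change less the P3 minus E18 change compares the 2 intervals. It was above 0 and called for 6 of 8 genes, with 16.7% of all genes called above 0 and 5.28% below. It was 6.90 ± 0.83 for Sox2 (adjusted p = 0.00247), 6.53 ± 0.36 for Sox3 (adjusted p = 0.000276), 5.59 ± 0.29 for Sox1 (adjusted p = 0.000266) and 2.52 ± 0.40 for Sox21 (adjusted p = 0.00722). Sox1, Sox2, Sox3 and Sox9 were at or near the low end of the signal by P3. For these genes the value mostly restates the P3 fall and does not show when a fall ended. Sox4 stood at 2.83 ± 0.63 (adjusted p = 0.0226), which includes its uncalled difference of 1.02 between P6 and P3, and Sox9 at 1.61 ± 0.42 (adjusted p = 0.0362). With the Actb 3′ excess as a covariate 2 of 8 were called, and Sox2, at 5.75, was not among them (adjusted p = 0.181). Without P6 replicate 1 or P6 replicate 2 the call of Sox4 was lost (adjusted p = 0.0716 and 0.0889), as it was at 0.67 with its probe sets averaged (adjusted p = 0.277), at 2.72 with the hybridization controls as a covariate (adjusted p = 0.12) and at 0.06 with the Actb 3′ excess as one (adjusted p = 0.964). That of Sox9 was lost without any array except P3 replicate 2 (adjusted p = 0.0674 to 0.102).

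Among the further Sox genes, Sox5 and Sox6 were called at P3. Of 10 further family members on the array, 7 were tested, and 1 was higher and 1 lower at P3. Over all genes tested, 15.5% were called higher and 25.7% lower, so neither count is above the share of all genes. Sox5, a factor of deep-layer and corticothalamic neurons, had 9.71 and 9.78 on the E18 arrays, 11.49 and 10.66 on the P3 arrays and 11.35 and 11.24 on the P6 arrays (1.33 ± 0.31 at P3, adjusted p = 0.0131). Sox6, its SoxD relative found in progenitors of the cortex, had 9.43 and 9.38 on the E18 arrays, 6.98 and 7.30 on the P3 arrays and 7.05 and 6.93 on the P6 arrays (-2.27 ± 0.21 at P3, adjusted p = 0.000273). Sox5 and Sox6 were thus separated from E18 in opposite directions at both later stages. The third SoxC gene, Sox12, had 9.82 and 9.80 on the E18 arrays, 9.84 and 9.75 on the P3 arrays and 9.98 and 10.42 on the P6 arrays, and it was not called at P3 (-0.02 ± 0.25, adjusted p = 0.957). Sox7, Sox13, Sox14 and Sox18 had P3 changes between -0.46 and 0.50 and were not called. Of these, Sox13 is also a SoxD gene (-0.46 ± 0.23, adjusted p = 0.144) and Sox14 also a SoxB gene (0.50 ± 0.18, adjusted p = 0.0614).

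The genes whose profile over the 6 arrays lay closest to each Sox gene, by the root mean square difference after centring each gene on its mean, are given next. Closest to Sox3 were Cdk1, the mitotic kinase gene (0.11 log2 units), Cenpf, a kinetochore gene (0.18), and Pbk, another mitotic kinase gene (0.19). Closest to Sox2 were Top2a, a DNA topoisomerase gene (0.32), Celsr1, a planar polarity cadherin gene (0.36), and Pbk (0.45). Closest to Sox1 were Rbl1, a retinoblastoma family gene (0.10), Kif20a, a kinesin gene of cytokinesis (0.12), and Veph1 (0.13). These genes were chosen for their likeness, so their own changes add no evidence. Sox21 lay nearest to Adhfe1 (0.07), Cenpp (0.08) and Mpp5 (0.09), and Sox9 to Csf1 (0.08), Eva1c (0.09) and Tbc1d31 (0.11). Sox4 lay nearest to Zfp41, Vps72 and Selenoo, Sox11 to Klf6, Plxdc1 and Hnrnpu, and Sox10 to Hapln4, Kcns1 and Zfp78, each within 0.10.

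Most progenitor markers and all tested proliferation genes were lower at P3, beside Sox1, Sox2, Sox3, Sox21 and Sox9. Of 15 tested radial glia and progenitor markers that are not Sox genes, 13 were lower and 0 higher at P3. Over all genes tested, 25.7% were called lower and 15.5% higher. The median of the 15 was -3.93 log2 units. The log2 of their summed signal was 15.56 and 15.57 on the E18 arrays, 11.34 and 11.87 on the P3 arrays and 11.40 and 11.69 on the P6 arrays. Vim, an intermediate filament gene of radial glia, had 13.51 and 13.52 on the E18 arrays, 7.39 and 7.38 on the P3 arrays and 8.16 and 8.18 on the P6 arrays, and Prom1, a progenitor surface protein gene, fell by 5.26 ± 0.21 at P3. Eomes, a factor of intermediate progenitors, fell by 5.53 ± 0.20 and Emx2, a cortical patterning factor, by 4.95 ± 0.21. Pax6 (0.66 ± 0.23, adjusted p = 0.0565) and Nes (0.07 ± 0.25, adjusted p = 0.848) were not called at P3. Pax6 lay at the low end of the signal, between 5.79 and 6.80 on the 6 arrays. All 13 tested proliferation genes were lower at P3, with a median of -5.09, and the summed signal of the 15 on the array was 15.85 and 15.90 on the E18 arrays, 12.13 and 11.56 on the P3 arrays and 11.99 and 11.97 on the P6 arrays. The part of these cells' RNA in the falls of Sox1, Sox2, Sox3, Sox21 and Sox9 was not tested.

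Of 15 tested astrocyte markers, 10 were lower and 1 higher at P3, with a median of -3.53. Over all genes tested, 25.7% were called lower and 15.5% higher. Gfap, Aqp4 and Slc1a2, all genes of mature astrocytes, were not called, and S100b was higher by 0.58 ± 0.19 (adjusted p = 0.0469). On every array Gfap, Aqp4 and S100b lay under the highest other-tissue value of 7.75, where a change is hard to measure. The 9 tested other-tissue genes had a median P3 change of 0.35, with 1 called higher. The summed signal of the 16 astrocyte markers on the array was 14.93 and 14.97 on the E18 arrays, 12.71 and 12.39 on the P3 arrays and 13.29 and 13.94 on the P6 arrays. Aldh1l1, a folate enzyme gene of astrocytes, had 11.41 and 11.39 on the E18 arrays, 6.05 and 6.16 on the P3 arrays and 6.66 and 7.17 on the P6 arrays. Id3, an inhibitor of bHLH factors, had a P6 minus P3 difference of 1.12 (adjusted p = 0.112) and Apoe, a lipid carrier gene, of 2.55 (adjusted p = 0.113). That of Sox9 was -0.21. Sox9 and Id3 were near the low end at both stages, where a difference could hardly be measured. No astrocyte marker was called between P3 and P6, with 0% of all genes called. The part of astrocytes in the Sox9 values was not tested.

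Of 10 tested oligodendrocyte lineage markers, 3 were lower and 1 higher at P3, near the 25.7% and 15.5% of all genes, with a median of 0.27, and the summed signal of the 16 on the array was 11.44 and 11.42 on the E18 arrays, 10.96 and 11.00 on the P3 arrays and 10.90 and 11.28 on the P6 arrays. Olig2, a factor of oligodendrocyte precursors, had 8.19 and 8.24 on the E18 arrays, 4.56 and 5.58 on the P3 arrays and 4.63 and 5.29 on the P6 arrays (-3.14 ± 0.35 at P3, adjusted p = 0.000579). Olig1, its neighbour and relative, fell by 1.96 ± 0.38 at P3 (adjusted p = 0.00656) and Cspg4, a surface proteoglycan gene of precursors, by 0.66 ± 0.21 (adjusted p = 0.0399). Mobp, a myelin protein gene, was higher by 0.73 ± 0.21 at P3 (adjusted p = 0.0286), at values of 7.83 and 8.13 in P3 against 7.30 and 7.19 in E18. The part of this lineage in the values of Sox10 and Sox8 was not tested.

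Neuron markers went the other way. Over all genes tested, 25.7% were called lower and 15.5% higher at P3, and 16.9% and 14.8% at P6. Of 12 genes of mature neurons, 10 were higher and 0 lower at P3, with a median of 2.39, and their summed signal was 12.75 and 12.81 on the E18 arrays, 14.91 and 14.81 on the P3 arrays and 15.16 and 15.12 on the P6 arrays. Of 10 tested microglia markers, 7 were lower and 0 higher at P3, and 0 of 10 were called at P6. The summed microglia signal was 13.05 and 13.04 on the E18 arrays, 10.37 and 11.38 on the P3 arrays and 11.07 and 12.75 on the P6 arrays. P6 replicate 2, the higher P6 array for microglia, was also the higher one for Sox2. It was likewise the higher one for the summed astrocyte, radial glia and oligodendrocyte lineage markers given above. The sums of proliferation, interneuron, and endothelial and pericyte genes were not higher on it. P6 replicate 1 differed from it in 18S signal (13.92 against 11.33) and in hybridization controls (13.0 against 9.8). The part of any of these cells or array differences in the Sox2 value was not tested. Of the others, 3 of 7 tested interneuron markers and 3 of 8 tested endothelial and pericyte markers were lower at P3, with 1 higher in each.

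**Figure D4:**
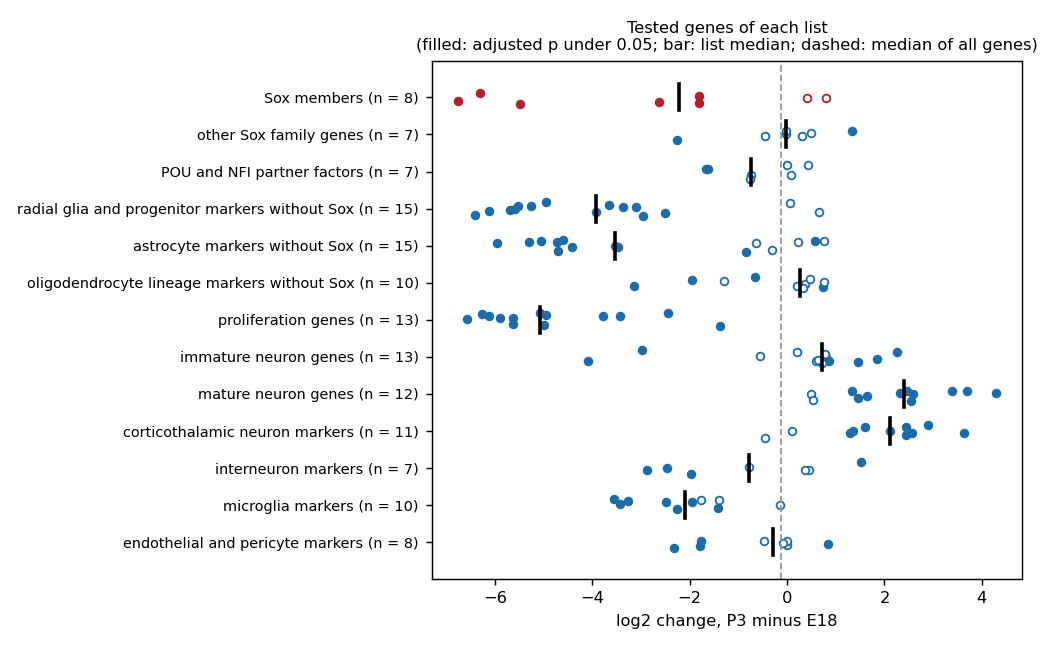
Log2 change from P3 minus E18 (horizontal axis) of every tested gene in each list (vertical axis), filled where the adjusted p was under 0.05, with a bar at the list median and a dashed line at the median of all genes (-0.13). The Sox genes spread from -6.75 to 0.81, the proliferation genes all lie below 0 and the mature neuron genes all lie above it.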

How the data were processed

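The series holds 6 Affymetrix arrays of total RNA from sorted corticothalamic neurons, 2 each at E18, P3 and P6. The authors deposited log2 values, 1 per probe set and array. The submitters' processing notes name RMA, a method of background correction, normalization and probe summary. Its version, and whether the 6 arrays shared 1 run, are not given in the sources used here. No detection call was used, and the number of arrays limits the precision.

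Gene symbols came from GEO's platform annotation. Of 45101, 34945 had 1 symbol, and those with several (932) or none (9160) were left out. Each of 18193 genes was represented by its brightest probe set by mean. The dimmest 25% of genes were left out, which kept 13645 with means of at least 5.97. A limma model (3.58.1, R 4.3.3) of the stage means used all 6 arrays, with 3 residual degrees of freedom and an intensity trend. Tests were 2-sided, with Benjamini-Hochberg adjustment over all genes within a comparison and a threshold of 0.05. A further fit used all 34945 probe sets without a filter, and its p-values were adjusted over these. The test was checked on simulated data.

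The Sox members and the gene lists were chosen with earlier results of these data known. Named from each list were up to 4 genes with the smallest p in P3 minus E18 and up to 2 in P6 minus P3, all tested Sox genes, and the 3 nearest genes of each member. Not every gene so chosen is described. Gfap, Aqp4, Slc1a2, S100b, Pax6, Nes, Gad2 and Sst were named after their values were seen. Promoters came from RefSeq (GRCm38.p6). Replicate numbers did not pair the arrays: deviations from stage means correlated at -0.20, 0.04 and -0.14 between stages. Alternatives were quantile normalization, probe set summaries, filters, covariates, array weights, moderation, a replicate block and leaving out arrays.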

Additional observations from a re-analysis of the deposited data

How the results depend on the processing

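Limma called 6 of 8 Sox genes at P3 against E18, 0 at P6 against P3, 5 at P6 against E18 and 6 for the unequal change. With the lowest 50% of genes left out only 4 Sox genes were tested, and the counts were 3 for P3, 2 for P6 and 3 for the unequal change, the last of which was 2 with the Actb 3′ excess as a covariate. Leaving out each array in turn gave 6 to 7 genes for P3 against E18 (Sox11 was called higher without P6 replicate 2, adjusted p = 0.0489), 0 to 2 for P6 against P3, 5 to 6 for P6 against E18 and 4 to 6 for the unequal change. Averaged probe sets, the hybridization control covariate and the Actb covariate each gave 5 for P3 against E18. Sox1, Sox2, Sox3, Sox9 and Sox21 kept their direction and their calls for P3 and P6 against E18 under every alternative in which they were tested. Sizes and their order depended on the probe sets used. With the mean of all probe sets the P3 change was -2.90 for Sox1, -3.38 for Sox3 and -3.98 for Sox21. In the main fit these were -5.49, -6.30 and -2.64. Replicate block: as the numbers do not pair the arrays, this fit is given only here, and the block left the counts at 6, 0, 5 and 6.

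Values that turned sign were those of uncalled changes. For P3 against E18, Sox11 stood at -0.11 under the hybridization control covariate and Sox10 at -0.20 with the Actb excess. For P6 against E18, Sox11 stood at -0.66 with the mean of all probe sets, and at -0.37, -0.083 and -0.029 with the hybridization control, 18S and Actb covariates, and Sox10 at -0.0061 with the last. Leaving out arrays gave -0.28 to 0.47 for Sox11 in that comparison. For P6 against P3, the mean of all probe sets gave -0.055 for Sox1, -0.021 for Sox4 and 0.064 for Sox21. The Actb covariate gave -0.11 for Sox1, -0.28 for Sox2, -0.009 for Sox4, 0.20 for Sox9 and 0.20 for Sox10, and 0.40 for Sox10 in the unequal change. Leaving out arrays gave -0.041 to 0.24 for Sox1, -0.69 to 0.98 for Sox2, -0.53 to 0.10 for Sox9, -0.85 to 0.040 for Sox10 and -0.69 to 0.061 for Sox11. The cause was not tested.

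Over all genes, limma called 5629 for P3 against E18, 4320 for P6 against E18 and 3000 for the unequal change. With the E18 arrays averaged these were 2452, 2366 and 1258, and with the hybridization control covariate 2263, 2485 and 983. With the Actb covariate the first was 1773 and the last 257, and array weights gave 1805 for the last. Leaving out arrays gave 2397 to 7871, 2338 to 6161, 1253 to 6429 and, for P6 against P3, 0 to 3922. Quantile normalization moved the median of all genes for P3 against E18 to 0.12, against -0.13, and the share of calls that were higher to 52.4%, against 37.6%, with the same 6 Sox genes called. The unequal change of Sox9 lost its call in 13 alternatives, whose adjusted p ran from 0.0511 to 0.147. An alternative added after seeing the data left out P3 replicate 2 and P6 replicate 1, the arrays with high 18S signal. It gives values without a test, as only E18 then has a pair: Sox2 was lower at P3 by -6.83 and Sox4 by -1.19.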

Other observations

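Sox2ot, a long noncoding RNA gene within whose span RefSeq places Sox2, is not a member and was chosen after its values were seen. Its 1 probe set had 7.53 and 7.64 log2 units on the E18 arrays, 3.99 and 4.09 on the P3 arrays and 4.27 and 4.1996 on the P6 arrays. In the fit over all probe sets it was 11.7-fold lower at P3 (-3.54 ± 0.14, SE; limma adjusted p = 3.22e-05) and 10.2-fold lower at P6 (-3.35 ± 0.14, adjusted p = 3.9e-05). Its later values lay under the medians of the other-tissue genes, so both folds are limited by the low end of the signal. Both E18 arrays lay above all later ones, as for Sox2.

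Of 7 tested interneuron markers, 3 were lower and 1 higher at P3, against 25.7% and 15.5% of all genes. Dlx1, a homeobox gene of interneuron precursors, had 8.76 and 8.78 on the E18 arrays, 5.73 and 6.05 on the P3 arrays and 6.20 and 5.51 on the P6 arrays (-2.88 ± 0.26 at P3, adjusted p = 0.00021). Lhx6, which marks interneurons of the medial ganglionic eminence, was lower by -2.46 ± 0.33 at P3 (adjusted p = 0.00141), and the neuropeptide gene Npy was higher by 1.51 ± 0.26 (adjusted p = 0.0044). Slc32a1, the vesicular GABA transporter gene, changed by -1.96 ± 0.22 (adjusted p = 0.000648). Gad1 (0.45, adjusted p = 0.0567), Gad2 (0.37, adjusted p = 0.21) and Sst (-0.77, adjusted p = 0.0604) were not called. Rgs5 and Pdgfrb, both pericyte genes, were lower at P3 by -2.31 ± 0.19 and -1.78 ± 0.16 (adjusted p = 0.000142 and 0.00024). Abcc9, also a pericyte gene, was higher by 0.85 ± 0.23 (adjusted p = 0.023), and Kcnj8 was not called (-0.09, adjusted p = 0.695).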
